A study of Homo sapiens with 41 samples.

Results

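Elongin A is the largest subunit of Elongin, a factor known from in vitro work to stimulate elongation by RNA polymerase II (RNAPII) and that also takes part in a ubiquitin ligase. The comparisons here concern 10 genes listed as markers of colon epithelial identity, out of 20163 protein-coding genes of the annotation. They are KRT8, KRT18, KRT19, CDH1, CDH17, EPCAM, VIL1, LGALS4, CEACAM5 and HNF4A, and not all of them are particular to colon. The comparisons ask where Elongin A was mapped at these genes in a colon cancer cell line. A peak was assigned to a gene when at least 1 bp of it lay within the gene, all annotated transcripts included, or within 1 kb of either end. By this rule the genes held 12 of the 8720 peaks of the goat antibody CUT&RUN list, 4 of the 2338 peaks of the mouse antibody CUT&RUN list and 0 of the 186 peaks of the ChIP-seq list.

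DLD1 is an established human colon cancer line, here grown without siRNA and fixed with formaldehyde before CUT&RUN and ChIP. In CUT&RUN an antibody brings a nuclease to the protein inside permeabilized cells, and the DNA that it releases is sequenced, whereas ChIP precipitates sheared chromatin with the antibody. With the goat antibody, 2 CUT&RUN replicates and a goat IgG library gave a single deposited list. With the mouse antibody there was 1 sample, paired with a mouse IgG library, and for ChIP-seq there was 1 immunoprecipitate, paired with an input library. Because no list separates replicates or gives read totals, the values below have no replicate error, their sequencing depth is unknown, and differences between peaks are descriptions that were not tested. The lists hold no expression values, so the epithelial label of these cells was not checked against RNA.

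Simple epithelia such as the lining of the colon are held in shape by keratin filaments, each built from a type II keratin paired with a type I keratin. KRT8 is the type II partner, and KRT18 and KRT19 are type I partners. CDH1 (E-cadherin) and CDH17 (liver-intestine cadherin) are calcium-dependent cell adhesion proteins, and EPCAM is an epithelial adhesion protein of the surface membrane. VIL1 (villin) bundles actin in the microvilli of the brush border, LGALS4 is a galectin of the intestinal epithelium, and CEACAM5 is the carcinoembryonic antigen. HNF4A is a nuclear receptor that switches on many genes of liver and intestine, and it is transcribed from a pair of promoters.

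The hg19 sequences of 3 of the 12 goat antibody peaks are printed first, because each of these peaks lies at a gene start or just past a gene end. The KRT8 sequence from chr12:53289502-53289622, on the minus strand, is the 121 bases around the summit of the strongest peak, past the end of the gene, with the E-box CACCTG, a site for zinc-finger repressors of epithelial genes, in capitals. The second KRT8 sequence is a whole peak, chr12:53320374-53320668 on the minus strand, with the 211 bases that a mouse antibody peak also covered in capitals. The HNF4A sequence is a whole peak too, chr20:42984039-42984254 on the plus strand, with 3 motifs in capitals, which are the caudal-type site TTTATG and the CCAAT box, both read on the opposite strand, and the E-box.
KRT8 past the end: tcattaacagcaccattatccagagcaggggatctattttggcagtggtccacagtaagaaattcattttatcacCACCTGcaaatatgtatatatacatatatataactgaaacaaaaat
KRT8 upstream start: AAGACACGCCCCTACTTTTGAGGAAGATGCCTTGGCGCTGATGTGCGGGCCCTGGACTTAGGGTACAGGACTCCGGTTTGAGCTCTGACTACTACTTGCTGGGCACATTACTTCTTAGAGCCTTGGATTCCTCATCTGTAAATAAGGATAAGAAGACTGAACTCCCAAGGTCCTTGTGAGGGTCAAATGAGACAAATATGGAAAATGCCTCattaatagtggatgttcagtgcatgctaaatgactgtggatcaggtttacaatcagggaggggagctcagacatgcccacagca
HNF4A start: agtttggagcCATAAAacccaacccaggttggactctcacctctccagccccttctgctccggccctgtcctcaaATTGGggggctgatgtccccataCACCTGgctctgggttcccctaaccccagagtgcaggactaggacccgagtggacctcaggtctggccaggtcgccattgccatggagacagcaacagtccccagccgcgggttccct

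With the goat antibody, Elongin A peaks lay at 5 of the 10 genes, KRT8, KRT18, CDH1, EPCAM and HNF4A, and not at KRT19, CDH17, VIL1, LGALS4 or CEACAM5. That share of 50.0% had a 95% Wilson interval of 23.7% to 76.3%, which covers counting error only, and the share over all protein-coding genes was 21.7% (4378 genes). With the mouse antibody, 2 genes had a peak, KRT8 with 3 peaks and CDH1 with 1, with an interval of 5.67% to 51.0% for the share, against 7.79% over all protein-coding genes. In both CUT&RUN lists the genes' share was higher than the background share, but these genes were listed with results of the same data known, so no test is drawn from the intervals. With the goat antibody the count was 3 of 10 without the flank, against 18.6% of protein-coding genes, and 4 of 10 with 1 representative transcript per gene, against 19.7%. No gene had a ChIP-seq peak, which allows a share of up to 27.8%, and the background was 0.784%. With 186 peaks in the list, a difference between these genes and the background was not detectable.

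The fold enrichment of a peak is its pileup over the local control background as the peak caller gave it, and rank 1 is the peak with the highest fold enrichment of its list. The 12 goat antibody peaks ranged from 2.59 to 7.07 with a median of 4.70, where the list ran from 1.90 to 43.6 with a median of 4.32. Of the 12, 7 lay above the list median and 2 lay in the strongest 20% of the list, above 5.52. The 4 mouse antibody peaks ranged from 3.46 to 5.09 with a median of 4.76, beside a list median of 4.36, and 3 of them lay above it. The best rank of these peaks was 495 in the goat antibody list and 561 in the mouse antibody list. By fold enrichment no mouse antibody peak was among the strongest 20% of its list. By −log10 q-value the mouse antibody peaks had percentiles of 94.3, 86.7 and 48.3 at KRT8 and 56.1 at CDH1. The fold enrichments of the different lists rest on different controls and were not compared.

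**Figure D1:**
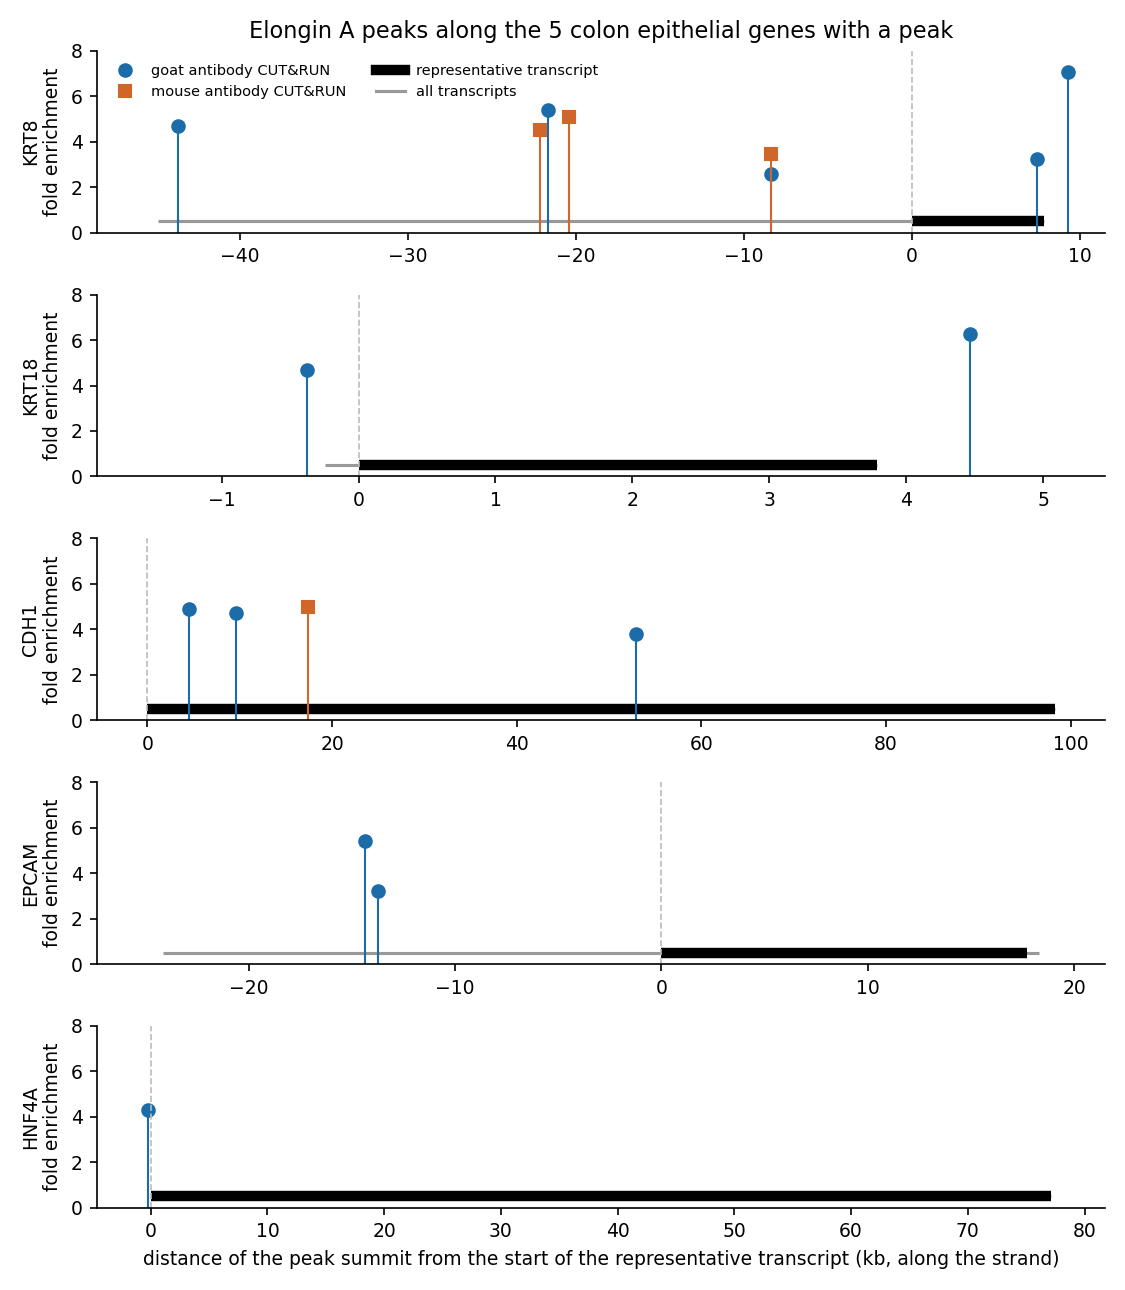
Each panel shows 1 gene, with the distance of peak summits from the start of its representative transcript along the strand (kb) on the x axis and fold enrichment over control on the y axis. Blue circles are goat antibody CUT&RUN peaks, orange squares are mouse antibody CUT&RUN peaks, the black bar is the representative transcript and the grey line the span of all transcripts; the highest circle, 7.07, lies past the end of KRT8.

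KRT8 had the most peaks of the 10 genes, 5 with the goat antibody, a number reached or passed by 188 protein-coding genes (0.932%). In the annotation KRT8 runs on the minus strand over chr12:53290971-53343738, 52.8 kb, because some transcripts start far upstream, while its representative transcript KRT8-218 covers 7.89 kb with 8 exons. The peaks' fold enrichments were 7.07, 3.26, 2.59, 5.41 and 4.69 in the order of their genome positions. The strongest peak of KRT8 is therefore not at its start but past its end, and it covers chr12:53288964-53290818.

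This peak began 157 bp beyond the end of KRT8-218, and its summit lay 1413 bp beyond it. The summit was thus outside the 1 kb flank, and the peak was assigned to KRT8 by the part of it inside the flank. At 1855 bp it was wider than 99.0% of the goat antibody peaks. Its fold enrichment had rank 495 of 8720, and its −log10 q-value of 16.0 had rank 298. Its summit held 37.5% GC and 0 CpG over 200 bp, beside a lower quartile of 38.0% GC and a median of 2 CpG for the list. Each of its 1824 words of 32 bases occurred once in the genome. The 121 bases printed above are 33.1% GC and hold a single CACCTG near a stretch of alternating A and T.

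KRT8 had no goat antibody peak in the promoter window of KRT8-218, taken as 1000 bp upstream to 100 bp downstream of the start. Its promoter peak belonged to another transcript, KRT8-215, which starts far upstream. The summit was 244 bp upstream of that start and 21.6 kb upstream of the start of KRT8-218. This peak, chr12:53320374-53320668, had a fold enrichment of 5.41, rank 1897, and a −log10 q-value of 14.9, rank 355. The RefSeq promoter entry for KRT8, 250 bases before to 50 bases after a start, matched the hg19 genome exactly at chr12:53320204-53320503, the start of KRT8-215, and 130 bases of it lay in the peak. Neither the E-box nor a TATA box, CCAAT box or GC box, in the letters searched, was found in that RefSeq entry on either strand.

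A mouse antibody peak covered the same place. It ran over chr12:53320458-53321130 with a fold enrichment of 4.52, rank 994 of 2338, shared 211 bp with the goat antibody peak and had its summit 484 bp away. Another mouse antibody peak, chr12:53319159-53319367, had the highest fold enrichment of the 4, 5.09 at rank 561, and its summit lay 1220 bp from the nearest goat antibody summit without an overlap. The weakest peaks of both lists at KRT8 coincided most closely, a goat antibody peak over chr12:53307145-53307497 with a fold enrichment of 2.59 at rank 8620 and a mouse antibody peak over chr12:53307132-53307444 with 3.46 at rank 2040. They shared 300 bp, and their summits were 6 bp apart, 8.35 kb upstream of the start of KRT8-218. Agreement in position at KRT8 thus occurred at peaks near the bottom of each list as well as at stronger ones.

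The remaining goat antibody peaks at KRT8 held repeated sequence. The one over chr12:53291336-53291898, with a fold enrichment of 3.26 and a −log10 q-value of 1.82, had its summit in coding exon 8 of KRT8-218. Only 67.3% of its 32-base words were single-copy, and the word at its summit occurred 8 times in the genome. Its most repeated word occurred 60315 times. KRT8 has many processed pseudogene copies, but the source of the repeated words was not tested. This peak is reported as uncertain.

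**Figure D2:**
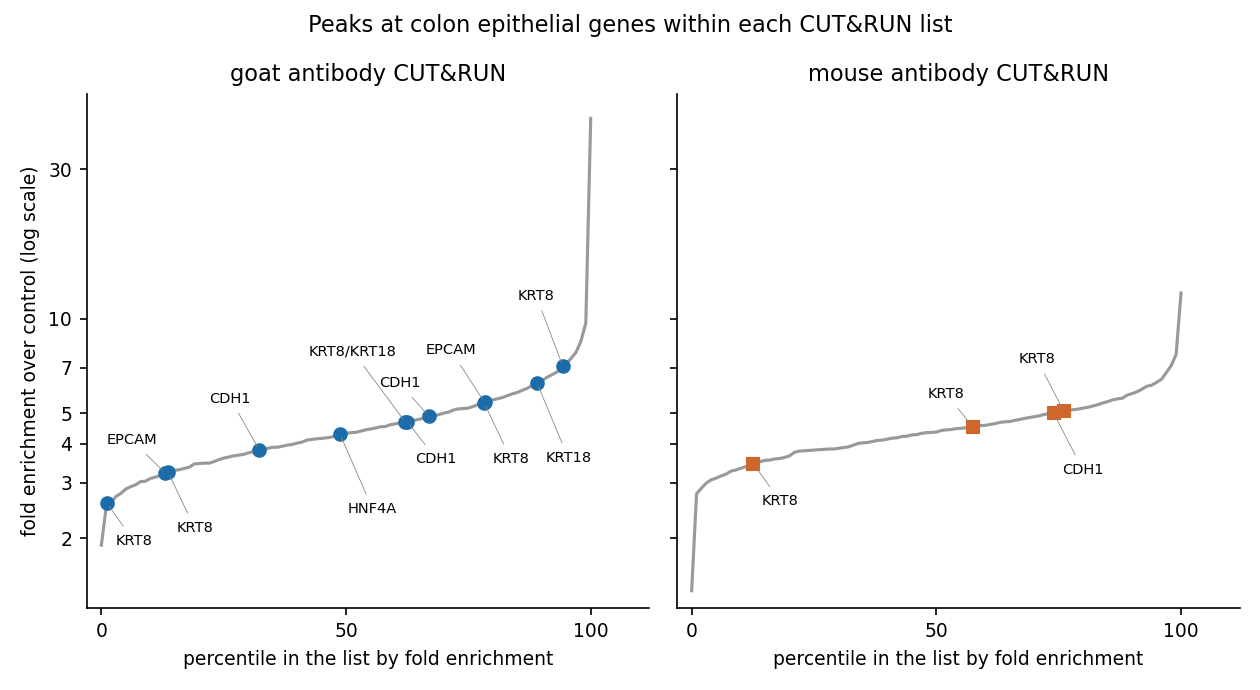
The grey line gives the fold enrichment over control (y axis, log scale) at each percentile of a list (x axis), and the points are the peaks at the colon epithelial genes, with KRT8/KRT18 the peak that both genes share. Points span the goat antibody list from percentile 1.12 to 94.3 and the mouse antibody list from 12.6 to 76.0.

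KRT18 lies beside KRT8 on the opposite strand, at chr12:53342655-53346690, and is 4.04 kb long. It had 2 goat antibody peaks, 1 before its start and 1 past its end, with fold enrichments of 4.69 and 6.26, and no mouse antibody peak, the nearest being 21.5 kb away. Per length this was 3.31 peaks in 10 kb of gene and flanks, the highest of the 10 genes, with 0.913 for KRT8 next.

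The peak before the start, chr12:53342395-53342628, was counted for KRT8 as well, since the longest KRT8 transcripts reach it. Its summit was 127 bp upstream of KRT18-202 and 374 bp upstream of the representative KRT18-201, and it ranked 3304. Of the 12 goat antibody peaks it had the lowest share of single-copy words, 36.9%, with words that occur up to 18841 times in the genome. The word at its summit occurred 6 times, and this peak is reported as uncertain too. Its summit held 9 CpG over 200 bp and the GC box GGGCGG, which 8.51% of goat antibody summits held.

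The KRT18 peak past the end, chr12:53347073-53348211, began 383 bp beyond the representative transcript and had its summit 676 bp beyond it. It was 1139 bp wide, wider than 96.8% of the list, and had rank 950, while its −log10 q-value of 10.3 had rank 943. In this peak 72.0% of words were single-copy, among them the word at the summit. KRT8 and KRT18 thus each had their strongest peak past the gene end, and those peaks were the widest of the 12.

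CDH1 extends over chr16:68771195-68869440, 98.2 kb, and is the longest of the 10 genes. Its 3 goat antibody peaks and its mouse antibody peak all had their summits in intron 2, which is 63.3 kb long, and no promoter or end window of CDH1 held a peak centre in any list. The goat antibody peaks lay 4.48, 9.56 and 52.9 kb from the start with fold enrichments of 4.90, 4.71 and 3.81, at ranks 2882, 3266 and 5852. The first of them was also within 1 kb of RNA5SP429, a gene not annotated as protein-coding. The mouse antibody peak lay 17.4 kb from the start at rank 599, higher than 74.0% of its list, and its summit was 7844 bp from the nearest goat antibody summit. The antibodies thus marked different places in the same intron.

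The CDH1 peaks also differed in how much of their sequence was single-copy. The share was 65.4% in the first goat antibody peak, 60.5% in the second and 100% in the third and in the mouse antibody peak. The word at the summit of the second peak occurred 171 times in the genome, and this peak is also reported as uncertain. In the first peak, the strongest of CDH1 in this list, the word at the summit was single-copy. CDH1 therefore kept 1 goat antibody peak free of repeated words, the weakest of its 3.

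EPCAM had 2 goat antibody peaks close together and none with the mouse antibody. They covered chr2:47581536-47582266 and chr2:47582620-47582830, with fold enrichments of 5.42 at rank 1891 and 3.22 at rank 7572. Both lay upstream of the representative transcript EPCAM-201, by 14.4 and 13.8 kb, and were assigned to the gene because longer EPCAM transcripts run through them. With only the representative transcript EPCAM had no peak, and the promoter of EPCAM-201 held none in any list. The stronger of them had a −log10 q-value of 12.5, rank 579, a width of 731 bp, and 100% single-copy words.

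HNF4A had 1 goat antibody peak, and it lay at a promoter. This peak was also within 1 kb of R3HDML-AS1, a gene not annotated as protein-coding. HNF4A covers chr20:42984339-43061485, and the summit of the peak was 196 bp upstream of its first start, that of HNF4A-202, known as the P2 promoter. Its fold enrichment of 4.31 at rank 4466 was just below the list median, while its −log10 q-value of 8.65 ranked 1437, so its place in the list depended on the measure. RefSeq has 1 entry for each HNF4A promoter, and both matched hg19 exactly. The entry at the first start shared 166 bases with the peak, and the entry at the second start, chr20:43029629-43029928, had no peak in any list.

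The HNF4A peak printed above had 61.0% GC around its summit and 100% single-copy words. The E-box CACCTG, which it held once, was present on either strand in 14.8% of the 200-bp windows around all goat antibody summits. The CCAAT box was present in 24.9% and the TTTATG site in 14.5%. At the 10 genes the E-box was found in 6 of the 12 goat antibody windows, 4 at KRT8, 1 at EPCAM and 1 at HNF4A. Those at KRT8 include the peaks with 67.3% and 36.9% single-copy words, the latter shared with KRT18. Of all RefSeq promoters of 300 bp, 20.6% held the E-box. Of the 12 windows, 4 held CCAAT, 3 TTTATG, 3 TATAAA, 2 GGGCGG and 0 TGACTCA. Over all goat antibody windows TATAAA was present in 15.5%, GGGCGG in 8.51% and TGACTCA in 5.94%. Among the motifs searched, the E-box is the one with the most of the 12 windows. The HNF4A motif CAAAGTCCA was found in 0 of the 12 windows and in 0.310% of all goat antibody windows.

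Over all 10 genes, a peak centre in a promoter window of the goat antibody list was found at 3, KRT8 by its upstream start, KRT18 and HNF4A. The background for such a promoter peak was 8.97% of protein-coding genes (1809 genes). With 1 representative transcript per gene the count was 2, KRT18 and HNF4A. The KRT18 promoter peak is reported as uncertain, with 36.9% single-copy words. The other occupied genes, CDH1 and EPCAM, had peaks in transcribed sequence without a promoter peak. Of all occupied protein-coding genes, 58.7% lacked a promoter peak.

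When each occupied gene was represented by its strongest goat antibody peak, KRT8 stood above 90.8% of occupied protein-coding genes and KRT18 above 83.1%. EPCAM stood above 69.7%, CDH1 above 56.3% and HNF4A above 37.6%, where the median strongest peak had a fold enrichment of 4.66. Without replicate values no step in this order can be set against an error. The strongest peaks of KRT18 and CDH1 held repeated sequence, with 72.0% and 65.4% single-copy words. Among all 8720 peaks of the list, the best percentile by fold enrichment was 94.3 for KRT8, 89.0 for KRT18, 78.3 for EPCAM, 66.9 for CDH1 and 48.7 for HNF4A. By q-value it was 96.5 for KRT8, 93.3 for EPCAM, 89.0 for KRT18, 83.2 for HNF4A and 52.6 for CDH1. KRT8 was first by both measures, while KRT18 and EPCAM changed places, as did CDH1 and HNF4A. By fold enrichment the place of KRT8 rests on the peak past its end, whose summit lay outside the 1 kb flank. The next strongest KRT8 peak had percentile 78.2 by fold enrichment, below KRT18 and EPCAM. By q-value that next peak had percentile 95.9, still above the other genes.

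**Figure D3:**
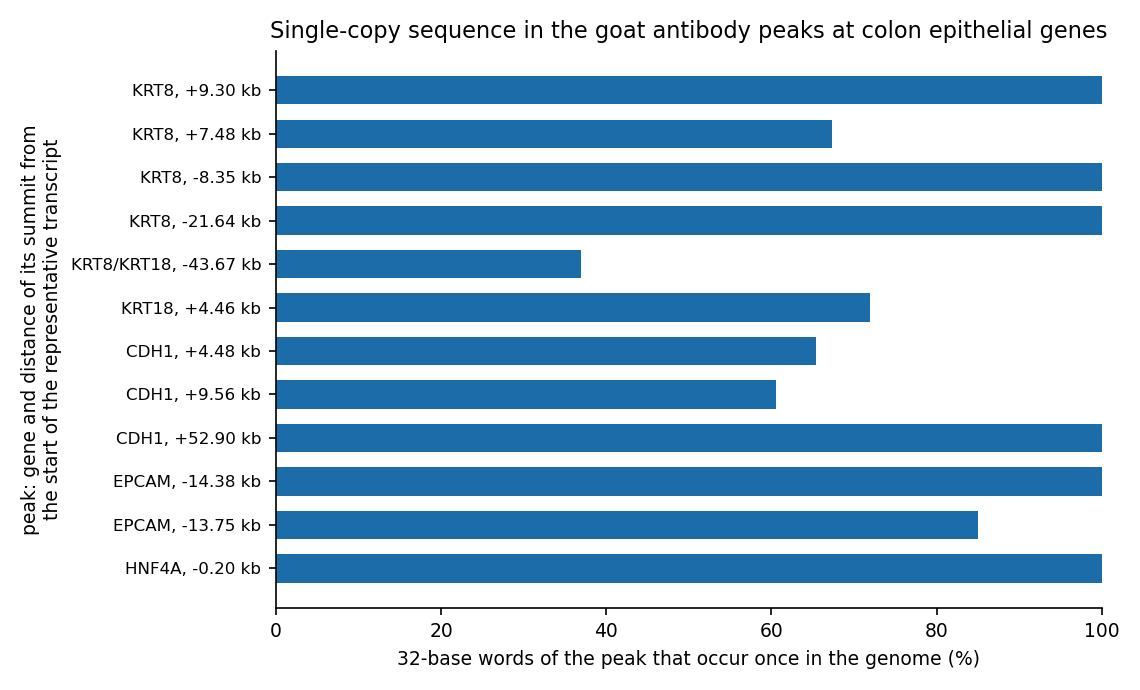
Bars give the percentage of 32-base words in each goat antibody peak that occur once in the hg19 genome (x axis), for the 12 peaks at colon epithelial genes, named by gene and by the distance of the summit from the start of the representative transcript. The bars reach 100% for 6 peaks and 36.9% for the peak shared by KRT8 and KRT18.

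Repeated sequence took a larger share of these peaks than of the list as a whole. Of the 12 goat antibody peaks, 5 had under 75% single-copy words, and 5.10% of all goat antibody peaks did. All words were single-copy in 6 of the 12, and in 76.8% of the list. The word at the summit itself was single-copy in 9 of the 12. The part of read placement in these peaks was not tested.

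The 5 genes without a goat antibody peak differed in how far the nearest one was. KRT19, at chr17:39679869-39684560, came closest to the 1 kb limit. A goat antibody peak with a fold enrichment of 3.54, rank 6662, lay 1.18 kb beyond its end, at the promoter of the neighbouring keratin gene KRT15, and a mouse antibody peak of 4.59, rank 931, lay 2.12 kb upstream of it. Inside the limit, the KRT18 peak past the end began 0.383 kb from the gene with a fold enrichment of 6.26. The peak past the end of KRT8 began 0.153 kb from the gene, but its summit lay outside the limit. A 5 kb limit would have added KRT19 to both CUT&RUN lists.

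For VIL1 the nearest goat antibody peak was 11.8 kb upstream, in CTDSP1, with a fold enrichment of 4.91. For LGALS4 it was 18.2 kb upstream, in ECH1, with a fold enrichment of 6.47 at rank 792, higher than any peak at the 10 genes except that past the end of KRT8. CEACAM5 had no peak within 100 kb in any list, the nearest being 130 kb away in both CUT&RUN lists. CDH17 had no goat antibody peak within 140 kb and a mouse antibody peak 24994 bp upstream, with a fold enrichment of 4.19. The RefSeq promoter entries of LGALS4 and CEACAM5 matched hg19 exactly and held no peak.

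**Figure D4:**
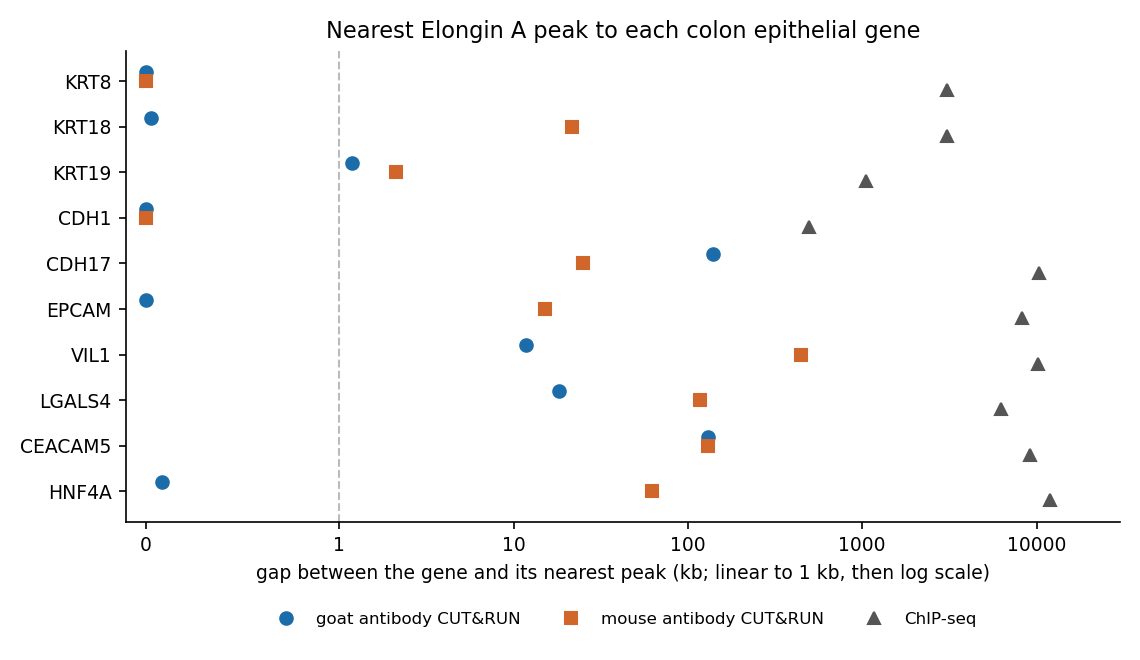
The gap in kb between each gene and its nearest peak is shown for the goat antibody CUT&RUN (blue circles), mouse antibody CUT&RUN (orange squares) and ChIP-seq (grey triangles) lists, on an axis that is linear to 1 kb (dashed line) and logarithmic beyond. Goat antibody gaps are under 1 kb for KRT8, KRT18, CDH1, EPCAM and HNF4A and reach 140 kb at CDH17, and the smallest ChIP-seq gap is 492 kb, at CDH1.

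Gene length alone changes how often a gene meets a peak, so the genes were set beside protein-coding genes of like length. In the shortest of 3 equal length classes, up to 13.9 kb, 13.2% had a goat antibody peak, and of KRT18, KRT19 and LGALS4 only KRT18 did. In the middle class, up to 50.4 kb, the share was 19.6%, and of EPCAM, VIL1 and CEACAM5 only EPCAM did. In the longest class the share was 32.3%, and of KRT8, CDH1, CDH17 and HNF4A all but CDH17 did. The 10 genes had a median length of 38.3 kb and all protein-coding genes 27.2 kb.

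The share of genes with a goat antibody peak was also counted in the clusters around these genes, beside the 21.7% of all protein-coding genes. In the type II keratin cluster with KRT18 at its end, 5 of 27 genes (18.5%) had one, namely KRT8, KRT18, KRT7, KRT80 and KRT86. In the type I keratin cluster that holds KRT19, 1 of 28 did (3.57%), KRT15. None of the 8 genes of the CEACAM cluster around CEACAM5 did, although 8 goat antibody peaks fell between its ends. The keratins of simple epithelia beyond the 10 genes had goat antibody peaks at KRT7, with a highest fold enrichment of 4.53, and KRT80, with 4.86, and not at KRT20 or KRT23. Of 10 keratins of stratified epithelia, such as those of skin, 1 (10.0%), KRT15, had a peak. These are short genes with a median length of 5.81 kb, and 13.2% of protein-coding genes up to 13.9 kb had a goat antibody peak.

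**Figure D5:**
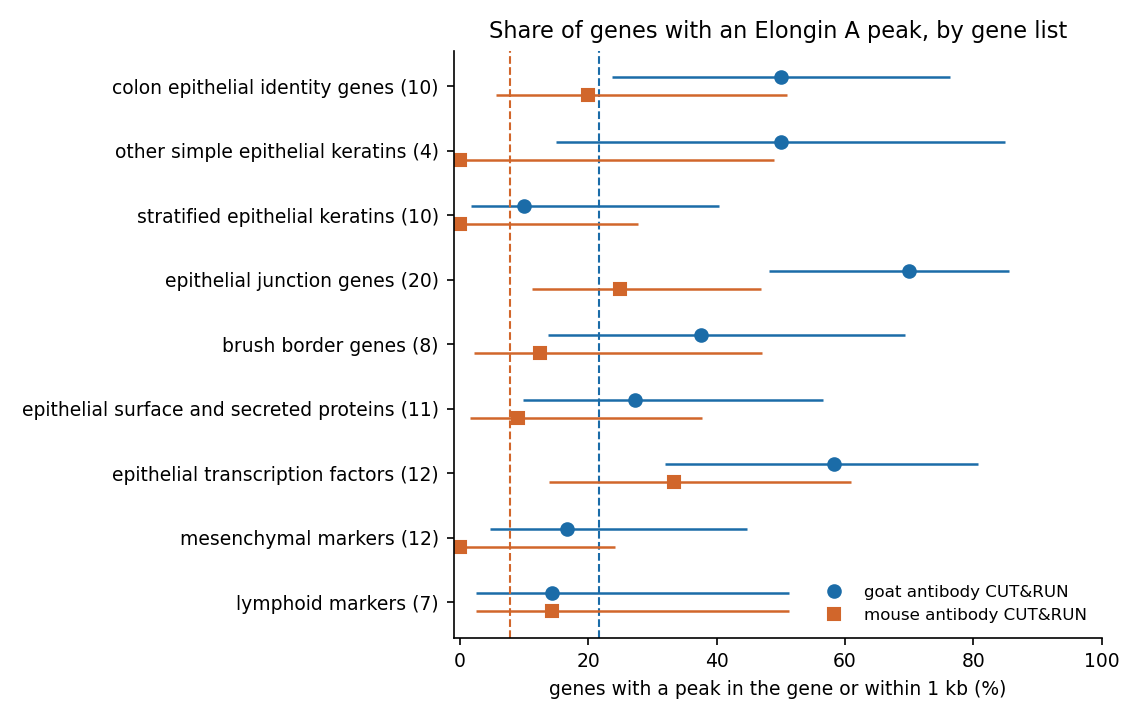
Points give the percentage of genes in each list that had a peak in the gene or within 1 kb (x axis), with the number of genes in parentheses and 95% Wilson intervals as lines, for the goat antibody (blue circles) and mouse antibody (orange squares) CUT&RUN lists. Dashed lines mark the 21.7% and 7.79% of all protein-coding genes, and the colon epithelial genes stand at 50.0% for the goat antibody.

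Related genes were counted from lists of the same roles, beside the 21.7% of all protein-coding genes with a goat antibody peak. Among cell junction genes, 14 of 20 (70.0%) had a goat antibody peak, among them CLDN4 (6.84) and DSP (6.34). Among transcription factors of gut and other epithelia, the company of HNF4A, 7 of 12 (58.3%) did, led by KLF5 (7.97), GATA6 (7.70) and GRHL2 (7.46). Brush border genes, the partners of VIL1, had 3 of 8 (37.5%), EZR, EPS8 and CDHR5, at 6.57, 4.91 and 3.69. Other surface and secreted proteins had 3 of 11 (27.3%), LGALS3, AGR2 and GPA33, where LGALS3, a galectin like LGALS4, had a peak of 10.1 at rank 77. Median gene length was 43.1 kb for the junction genes, 23.3 kb for the transcription factors, 52.0 kb for the brush border genes and 29.5 kb for the surface and secreted proteins. Of protein-coding genes in the longest class, above 50.4 kb, 32.3% had a goat antibody peak.

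For cell types that DLD1 cultures should lack, 2 of 12 mesenchymal markers (16.7%), CDH2 (5.95) and FN1 (4.54), had a goat antibody peak. So did 1 of 7 lymphoid markers (14.3%), PTPRC (3.46), where the share over all protein-coding genes was 21.7%. The intervals were 4.70% to 44.8% and 2.57% to 51.3%. These lists are small and were chosen with results known, so no comparison with the 10 colon epithelial genes is drawn from the intervals. The median gene length was 37.4 kb for the mesenchymal markers and 11.4 kb for the lymphoid markers, beside 38.3 kb for the 10 genes. With the mouse antibody the counts were 5 of 20 junction genes, 4 of 12 transcription factors, 1 of 8 brush border genes, 1 of 11 surface and secreted proteins, 0 of 12 mesenchymal markers and 1 of 7 lymphoid markers. No gene of these lists had a ChIP-seq peak.

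Between the antibodies, 2 of the 12 goat antibody peaks at the 10 genes (16.7%) overlapped a mouse antibody peak, both at KRT8, and 8.33% of all goat antibody peaks did. In the other direction it was 2 of 4 mouse antibody peaks (50.0%), where the list had 32.4%. The strongest goat antibody peaks, past the ends of KRT8 and KRT18, were not among the 2. None of these 12 or 4 peaks overlapped a ChIP-seq peak, as 0.837% of the goat antibody list did.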

How the data were processed

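Elongin A occupancy was taken from the 3 peak lists deposited for DLD1 cells. For these the authors used Bowtie2 for alignment to hg19, Picard to drop duplicates and MACS2 at default settings to call peaks, against goat IgG or input per the methods and against mouse IgG per the labels for the mouse antibody. The deposited fold enrichment is a ratio of pileup to local control background, and the deposited −log10 q-value is that of MACS2. The 2 goat antibody replicates share 1 list, and how they were combined is not given in the sources used here.

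Gene models were those of GENCODE release 44 in GRCh37 coordinates, positions count from 1, and sequence was read from GRCh37. A peak centre within 1000 bp upstream to 100 bp downstream of any transcript start of a gene was called a promoter peak, and one within 100 bp upstream to 1000 bp downstream of a transcript end an end peak. The representative transcript was the MANE Select, Ensembl canonical or longest one. Background shares are over 20163 protein-coding genes. Copies of each 32-base word were counted over the genome on both strands, motifs (TATAAA for the TATA box, GGGCGG for the GC box, and those given by their letters) on both strands in 200 bp around summits and in RefSeq entries (GRCh38.p14), of which 4 of the 10 genes had any, placed on hg19 by exact sequence match. The depth per sample is unknown, and intervals are Wilson intervals at 95%, which cover counting error only. No test was run.

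The 10 genes and the related lists were chosen with earlier results of these data known. All peaks of the 10 genes are named, and in each other list up to 3 genes with the highest fold enrichment, except 1 junction gene that is not reported here. KRT86 was named after its values were seen, and KRT15, CTDSP1 and ECH1 hold the nearest peak to 1 of the 10 genes. R3HDML-AS1 and RNA5SP429 lie within 1 kb of a peak of 1 of the 10 genes. Alternatives changed 1 choice at a time. Overlap and classes were checked on simulated peaks. Python 3.11.15, pandas 2.3.3, scipy 1.17.1, pysam 0.24.0 and samtools 1.23.1 were used. The RNA and RNAPII samples of the series were not analysed here.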

Additional observations from a re-analysis of the deposited data

How the results depend on the processing

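Of 76 alternative values for counts and shares, 67 stayed within 1.5 times the reported value, changes of exactly 1.5 times included. The 67 include the ChIP-seq gene counts and overlaps, which were 0 under every setting. Of 7 percentiles of a gene's strongest peak, 6 moved and 1 stayed when peaks were ranked by q-value. With the mouse antibody, KRT8 went from percentile 76.0 to 94.3 and CDH1 from 74.0 to 56.1. Without a flank the goat antibody genes with a peak fell from 5 to 3 (KRT8, CDH1 and EPCAM), and those with a promoter peak from 3 to 1 (KRT8), since the peaks of KRT18 and HNF4A lie outside their annotated ends. With a fold enrichment of at least 5, 3 genes (KRT8, KRT18 and EPCAM) and 4 peaks remained, 1 gene (KRT8) had a promoter peak, and 8.69% of protein-coding genes had a goat antibody peak and 2.36% a mouse antibody peak. A q-value under 0.001 left 4.23% of protein-coding genes with a mouse antibody peak. With 1 representative transcript per gene the mouse antibody genes were 1 (CDH1), as every mouse antibody peak of KRT8 lies upstream of KRT8-218. The q-value thresholds of 0.01 and 0.001 left the 5 genes with a goat antibody peak, and ChIP-seq gave 0 genes under each alternative. When the summit, or at least 50% of the peak, had to lie inside the window, the 5 genes stayed and 11 goat antibody peaks remained. The peak lost was the strongest one, past the end of KRT8, which was also lost without a flank. The highest fold enrichment left at KRT8 was then 5.41.

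No paired analysis was possible because no result comes from a test and the 2 goat antibody replicates share 1 list, while the other lists rest on 1 sample each. For the same reason leaving out a replicate was not run. Unknown depth, 1 list per antibody and 10 genes limit these counts, and a gene without a peak is one without a called peak, not one shown to lack Elongin A.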
